A study of Mus musculus with 6 samples.

Results

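The miR-10, miR-99 and miR-100 family was represented by 5 of the 1973 miRNA gene rows of the count table, chosen by their GENCODE M21 gene names: Mir99a, Mir99b, Mir100, Mir10a and Mir10b. Small RNA was sequenced from the exosomes that HN9.10e cells shed into their medium, a line of immortalized mouse hippocampal neurons labelled as wild type and grown with fetal bovine serum. Control exosomes came from untreated cells (3 libraries) and Cer exosomes from cells given 100 nM ceramide (3 libraries), all collected after 48 h. A row stands for a whole hairpin, so the mature miRNAs of its 5p and 3p arms share a single count. The study's text calls the replicates biological, but neither it nor the labels say whether they came from separate cultures, so the p-values measure the spread between these libraries, which may be partly technical. All come from a single cell line.

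The miR-10 and miR-99/100 miRNAs descend from a common ancestral miRNA. The miR-10 genes lie inside Hox clusters and are known for pairing with Hox transcripts, whereas miR-99 and miR-100 are known for repressing the kinase mTOR and the receptor IGF1R. The miR-99/100 genes sit in clusters with let-7, a miRNA that accumulates as cells differentiate, and with miR-125, the homolog of the worm lin-4. Such clusters can be transcribed as a single primary RNA.

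The mature sequences show what the 5 hairpins share and where they part. They are given here from RefSeq (GRCm38.p6), in which 916 rows of the table had a mature miRNA under their name, with the seed (bases 2 to 8, which pair with target mRNAs) in capitals. The 5p arms fell into a pair of seed groups.
miR-99a-5p: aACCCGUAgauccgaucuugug
miR-99b-5p: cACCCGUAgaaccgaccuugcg
miR-100-5p: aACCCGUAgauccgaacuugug
miR-10a-5p: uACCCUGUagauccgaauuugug
miR-10b-5p: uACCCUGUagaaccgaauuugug
No other mature miRNA in the RefSeq table used here carried either 5p seed. Counting positions from 1 at the 5′ end, miR-99a-5p and miR-100-5p differed by the single substitution U16A, and miR-10a-5p and miR-10b-5p by U12A. miR-99a-5p and miR-99b-5p differed by A1C, U11A, U16C and U21C. Between the seed groups, miR-100-5p and miR-10a-5p aligned with 1 gap and matched at 20 of 23 positions.

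On the 3p arms the grouping was different, since miR-99a-3p and miR-99b-3p shared a seed that miR-100-3p did not have.
miR-99a-3p: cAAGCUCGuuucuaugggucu
miR-99b-3p: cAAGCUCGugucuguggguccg
miR-100-3p: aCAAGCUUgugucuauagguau
miR-10a-3p: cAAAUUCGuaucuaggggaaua
miR-10b-3p: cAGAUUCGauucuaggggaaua
The hairpins of Mir99a and Mir100 are printed next because their rows gave the clearest differences between the groups, here with both mature arms in capitals. A read from anywhere in them adds to the same count.
Mir99a: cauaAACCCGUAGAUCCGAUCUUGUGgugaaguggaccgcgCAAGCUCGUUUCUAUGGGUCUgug
Mir100: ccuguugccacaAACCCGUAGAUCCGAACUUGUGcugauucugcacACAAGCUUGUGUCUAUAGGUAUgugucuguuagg

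In the genome (GRCm38, GENCODE M21) the Mir99a hairpin occupies chr16:77598936-77599000 (plus strand), in an intron of the noncoding RNA Mir99ahg and opposite an intron of Gm11146. Mir100 occupies chr9:41531425-41531504 (plus strand), in an intron of the noncoding RNA 3110039I08Rik and opposite an exon of the antisense lincRNA Gm48742. Mir99b occupies chr17:17830188-17830257 (plus strand), in an intron of Spaca6. Mir10a occupies chr11:96317165-96317274 (plus strand), in no annotated gene and 993 bases from Hoxb4. Mir10b occupies chr2:74726070-74726137 (plus strand), in introns of Hoxd3 and Hoxd4. None of the 5 hairpins overlapped another row of the table.

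The total count per library ranged from 800810 to 2760015, and the 5 rows held 40802 of 9591121 counts in all. Levels are given as normalized CPM, counts scaled to the library total with the TMM factors of edgeR. A small RNA read spans a whole mature miRNA, so rows were compared without division by length, although adapter ligation can favour some sequences over others. Intervals and floors of counting error are not given, because whether molecular identifiers were counted is not stated in the sources used here.

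Mir99b was by far the most abundant row of the family, and Mir10b was close to the limit of detection. In mean CPM over the control libraries, Mir99b ranked 55 of the 1973 rows, Mir100 126, Mir99a 160, Mir10a 222 and Mir10b 453. The order Mir99b, Mir100, Mir99a, Mir10a, Mir10b held in each of the 6 libraries. Counts of Mir99b were 3.74 to 8.03 times those of Mir100, and counts of Mir100 were 2.03 to 2.80 times those of Mir99a. Mir99a had 3.08 to 4.63 times the counts of Mir10a, and Mir10a had up to 19.0 times those of Mir10b. Within each group, the ranges in CPM of neighbours in this order did not overlap. Of the counts of the family, Mir99b took 69.9% to 81.0% in control libraries and 81.8% to 84.4% in Cer libraries.

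**Figure D1:**
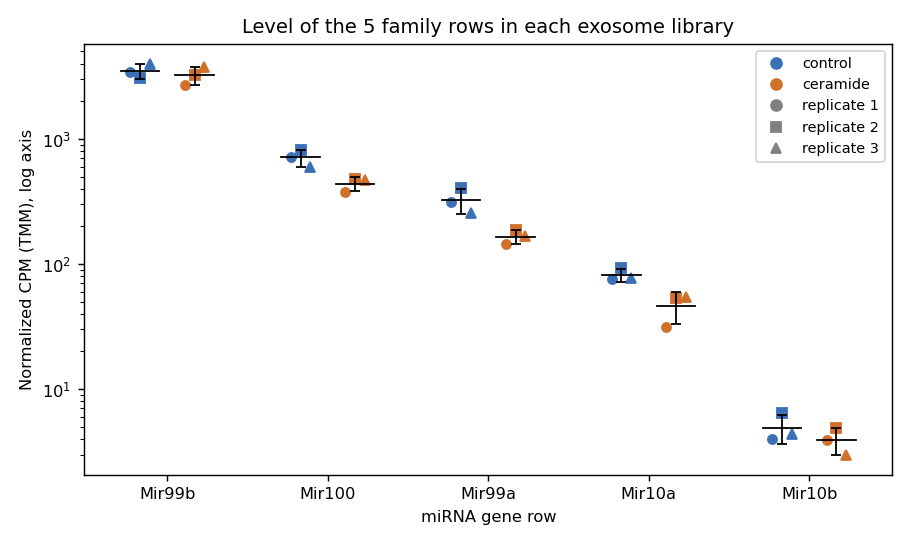
Normalized CPM (log axis) of each family row in the 3 control and 3 Cer libraries, with the marker shape giving the replicate number and black lines the group mean ± SD. The Cer libraries of Mir99a, Mir100 and Mir10a all lie below the control libraries of the same row, while those of Mir99b and Mir10b overlap them.

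The comparison of Cer with control exosomes asked which miRNAs differ in relative level under ceramide. CPM gives a part of each library's counts, so the amount of a miRNA released was not measured. Mir99a, Mir100 and Mir10a fell in Cer exosomes, to 0.511, 0.617 and 0.566 times their mean control levels. Mir99b did not pass the test, and Mir10b did not pass the filter on low counts. A row was called where edgeR's quasi-likelihood test reached 0.05 after Benjamini-Hochberg adjustment over the 418 rows kept by the filter on low counts, and the log2 fold change was 0.6 or more in size, the thresholds of the study. Of the 4 members tested, 3 were called lower and none higher, where 11.5% of all rows tested were called, 8.37% lower and 3.11% higher. The 5p miRNAs of Mir99a and Mir100 differ by 1 base, and whether any reads were counted on both rows was not tested. These rows may therefore not be fully separate measurements. By the adjusted p alone the same 3 members passed, as did 19.9% of the rows tested. Among the 418 rows, 13 were called higher and 35 lower, against 21 and 26 with DESeq2's size factors, 23 and 28 with upper-quartile factors and 4 and 42 with library size alone. DESeq2, the method of the study, called 10 higher and 28 lower here. The study's list of changed miRNAs holds miR-99a and miR-100 as lowered and does not hold miR-10a. The median log2 fold change was -0.74 over the 4 members tested and -0.01 over the 418 rows.

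Mir99a had 314, 403 and 255 CPM in control replicates 1, 2 and 3 and 144, 187 and 166 CPM in Cer replicates 1, 2 and 3. Every Cer library was below every control library, which was also so for 25.1% of the 418 rows (14.1% had every Cer library above, 39.2% either pattern). Mir99a averaged 324 ± 74.4 against 166 ± 21.3 CPM (SD over n = 3), a log2 fold change of -0.96 ± 0.19 (SE; edgeR adjusted p = 0.014) that rests on 2226 counts in all.

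Mir100, which carries the same 5p seed, had 714, 819 and 599 CPM in the control and 373, 477 and 465 CPM in the Cer libraries. Its groups did not overlap either. Mir100 averaged 711 ± 110 against 438 ± 57.0 CPM (SD over n = 3), a log2 fold change of -0.69 ± 0.15 (SE; edgeR adjusted p = 0.023). Control replicate 2 was the highest library and Cer replicate 1 the lowest for both Mir99a and Mir100.

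Mir99b, the third miRNA with that seed, had 3422, 3062 and 4000 CPM in the control and 2692, 3242 and 3735 CPM in the Cer libraries. The groups overlapped, and control replicate 2, the highest library for Mir99a and Mir100, was the lowest control library for Mir99b. Mir99b averaged 3495 ± 473 against 3223 ± 521 CPM (SD over n = 3). Its log2 fold change was -0.12 ± 0.15 (SE; 95% interval -0.47 to 0.24, edgeR adjusted p = 0.59), so that in this fit a fall as large as the threshold of 0.6 lay outside the interval. Over the alternatives the estimate reached -0.35, with the lane term, and no interval is given for those fits.

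Mir10a, of the other seed group, had 75.8, 92.4 and 76.8 CPM in the control and 31.2, 53.4 and 54.1 CPM in the Cer libraries. These levels rest on 76, 130 and 105 counts and on 24, 141 and 127 counts. The groups did not overlap, and Cer replicate 1, the library with the fewest counts in total, was the lowest. Mir10a averaged 81.7 ± 9.30 against 46.2 ± 13.0 CPM (SD over n = 3), with a log2 fold change of -0.78 ± 0.22 (SE; edgeR adjusted p = 0.046).

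Mir10b had 4, 9 and 6 counts in the control and 3, 13 and 7 counts in the Cer libraries. Its normalized levels, 4.93 ± 1.29 against 3.93 ± 0.972 CPM (SD over n = 3), overlapped, and a difference was not detectable at this depth.

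**Figure D2:**
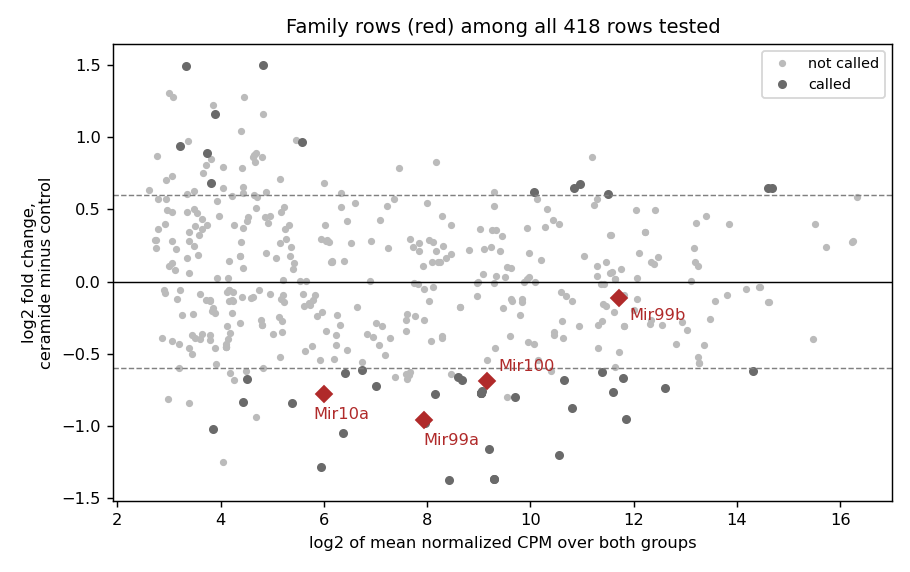
Log2 fold change (Cer minus control) against the log2 of the mean normalized CPM for the 418 rows tested, with the 4 family rows tested as red diamonds, called rows in dark grey and dashed lines at the fold threshold. Mir99a, Mir100 and Mir10a lie below the lower line, and Mir99b lies near 0.

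The calls of the members depended on single libraries to different degrees. Without control replicate 1 none of the 3 was called, with log2 fold changes of -0.99 for Mir99a (adjusted p = 0.056), -0.70 for Mir100 (adjusted p = 0.10) and -0.84 for Mir10a (adjusted p = 0.13). Mir100 also lost its call without control replicate 2 (-0.55) and without Cer replicate 2 (-0.77). Mir10a kept its call only when Cer replicate 1 was the library left out (-0.63), and lost it without control replicate 2 (-0.66), control replicate 3 (-0.83), Cer replicate 2 (-0.90) and Cer replicate 3 (-0.87). No omission turned the direction of Mir99a, Mir100, Mir10a or Mir99b.

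The replicate numbers pair the libraries by the correlations given with the processing, and the differences within pairs can be read directly. Mir99a was lower in Cer by log2 differences in CPM of -1.12, -1.11 and -0.62 in replicates 1, 2 and 3. The same differences were -0.94, -0.78 and -0.36 for Mir100 and -1.28, -0.79 and -0.51 for Mir10a. For Mir99b they were -0.35, 0.08 and -0.10. So the pairs had a common sign for Mir99a, Mir100 and Mir10a and not for Mir99b. For the first 3 rows this had to be so, because every Cer library was below every control library. The signs are therefore no further support, and the pairs only give the sizes of the differences. When the replicate number entered as a block, 87 rows of the table were called in place of 48, and the calls of the 4 members tested did not change.

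The labels also carry a lane number and a sample sheet position for each library. Lane number 1 is the only one found in both groups, for replicate 1, since the other control libraries carry 4 and the other Cer libraries 2. Both libraries of replicate 1 also carry sheet position 1, which a single run would not give to different libraries, so the shared lane number does not show that they were sequenced together. No batch known to hold both groups could therefore be compared, and sequencing run and ceramide cannot be told apart. With the lane number as a further term, which rests on that pair, the log2 fold changes were -1.12 for Mir99a, -0.94 for Mir100 and -1.28 for Mir10a, and none was called (edgeR adjusted p = 0.17, 0.12 and 0.069, in that order).

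**Figure D3:**
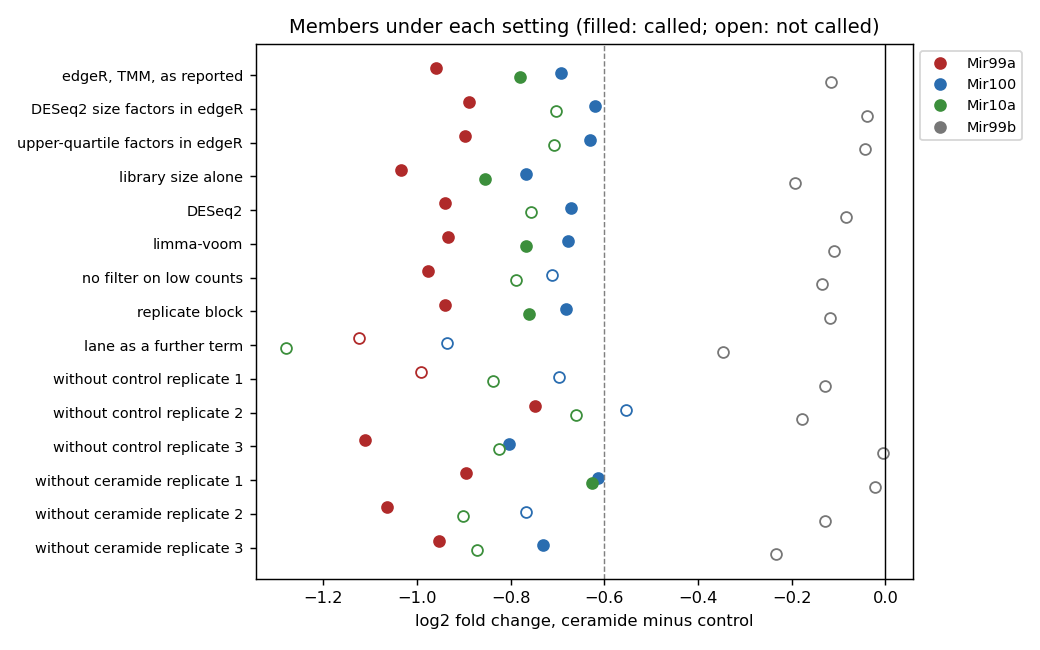
Log2 fold change (Cer minus control) of Mir99a, Mir100, Mir10a and Mir99b under the reported fit and each alternative, filled where the row was called, with a dashed line at -0.6. All points lie below 0, from -0.0051 to -0.35 for Mir99b and from -0.75 to -1.12 for Mir99a.

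The miR-99/100 genes each have a let-7 and a miR-125 gene beside them, so the members could be set against miRNAs of the same locus. Mirlet7c-1 lies 656 bases and Mir125b-2 47272 bases after Mir99a. Mirlet7a-2 lies 5211 bases and Mir125b-1 50421 bases after Mir100. Mir125a lies 554 bases after Mir99b. Between them lies Mirlet7e, which has no row here. Its place in the table is taken by Gm25927, a miRNA gene annotated on the opposite strand over Mirlet7e, and whether the counting used strand is not stated in the sources used here.

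The main mature sequences of these neighbours differ from those of the family in their seeds, shown in capitals.
let-7c-5p: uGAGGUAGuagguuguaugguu
let-7e-5p: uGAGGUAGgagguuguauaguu
miR-125b-5p: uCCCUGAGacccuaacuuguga
miR-125a-5p: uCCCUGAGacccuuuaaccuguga
miR-100-5p matched miR-125b-5p at 16 of 23 aligned positions with 2 gaps. Counts of Mir125b-1 and Mir125b-2 were within 1.38% of each other in each library, and the rows share their 5p miRNA, so they cannot be read as separate measurements. The rows Mirlet7a-2 and Mirlet7a-1 also share their 5p miRNA. The name of let-7c-5p, the 5p miRNA of Mirlet7c-1, carries no copy number. The study reported equal log2 fold changes for let-7c-1 and let-7c-2, so counts of Mirlet7c-1 may not come from the Mir99a locus alone.

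Beside Mir99a and Mir100, which fell, the estimate of the let-7 neighbour was above 0, and Gm25927 rose beside Mir99b, whose own interval included 0. The miR-125 neighbour was called lower only beside Mir99b. Of the 6 neighbours, 2 were called higher, 1 was called lower and 3 were not called, where 3.11% of all rows tested were called higher and 8.37% lower. Those not called include Mir125b-1 and Mir125b-2, which are not separate measurements. Mirlet7c-1, beside Mir99a, rose from 19327 ± 1004 to 30364 ± 2644 CPM (SD over n = 3), by 0.65 ± 0.09 on the log2 scale (SE; edgeR adjusted p = 0.0027). Mirlet7c-1 fell short of the fold threshold when scaled by library size (0.57) and without Cer replicate 1 (0.58). Mir125b-2 averaged 26214 ± 2019 against 23780 ± 1734 CPM (SD over n = 3), a log2 difference of -0.14 ± 0.09 (SE; edgeR adjusted p = 0.28).

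Beside Mir100, Mirlet7a-2 averaged 2019 ± 65.6 against 3005 ± 259 CPM (SD over n = 3). The difference of 0.57 ± 0.09 on the log2 scale (SE; edgeR adjusted p = 0.0053) missed the fold threshold. It passed with DESeq2's size factors (0.65), upper-quartile factors (0.64), the lane term (0.74), without control replicate 2 (0.62) and without Cer replicate 3 (0.64). Mir125b-1 differed by -0.14 ± 0.09 (SE; edgeR adjusted p = 0.28), like Mir125b-2.

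At the third locus, Mir125a fell from 7790 ± 1008 to 4673 ± 534 CPM (SD over n = 3), while Mir99b, in the same Spaca6 locus, did not pass the test. The log2 difference of Mir125a was -0.74 ± 0.13 (SE; edgeR adjusted p = 0.0077), and among the alternatives its call was lost only with the lane term (-0.72). Gm25927 rose from 851 ± 48.8 to 1309 ± 5.32 CPM (SD over n = 3), by 0.62 ± 0.08 on the log2 scale (SE; edgeR adjusted p = 0.0029). It fell short of the fold threshold when scaled by library size (0.54), with no filter (0.59) and without control replicate 1 (0.57).

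**Figure D4:**
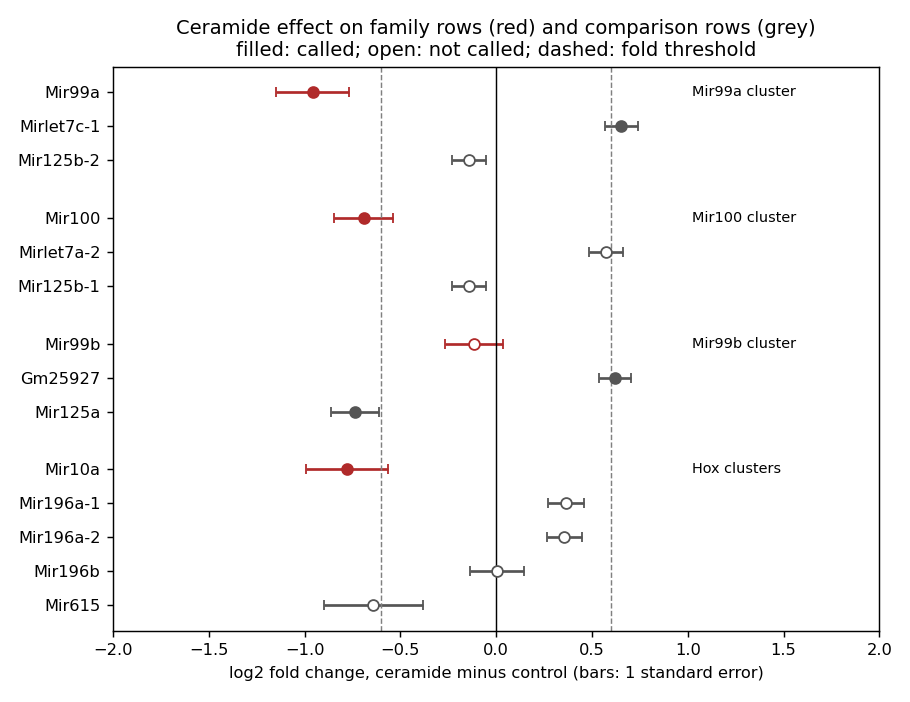
Log2 fold change (Cer minus control) with bars of 1 standard error for the family rows tested (red) and the comparison rows (grey), grouped by locus, filled where called and with dashed lines at the fold threshold. In the upper 3 groups the row at the let-7 gene lies to the right of 0 and the family row to the left, where the bar of Mir99b reaches across 0.

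Ratios of 2 rows within a library do not depend on the normalization, and 11 of them were compared between the groups with exact permutation tests over libraries (two-sided), for which 3 against 3 cannot give a p under 0.1 or, adjusted over the 11, under 0.11. All p-values of the next paragraphs are of this kind. In 10 of the 11 ratios the groups did not overlap (exact p = 0.1, adjusted p = 0.11 for each). Each ratio holds at least 1 row whose groups already did not overlap alone, as for 39.2% of all rows tested, so this count is a description and no further support for the differences of the rows.

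Counts of Mirlet7c-1 were 50.7 to 74.5 times those of Mir99a in control and 165 to 226 times in Cer libraries. The mean log2 ratio of Mir99a to Mirlet7c-1 was -5.92 ± 0.28 in control and -7.52 ± 0.26 in Cer exosomes (SD, n = 3 each), a change of -1.60 with a standard error of 0.22. For Mir100 and Mirlet7a-2, the counts of the let-7 row were 2.55 to 3.36 times those of Mir100 in control and 5.90 to 8.75 times in Cer libraries. That log2 ratio fell by 1.26 with a standard error of 0.21. In both loci the member was lower and the let-7 row higher in every Cer library than in any control library, so these ratios had to separate and serve only to give the size of the gap.

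Against the miR-125 neighbours the changes of the same members were also negative. The log2 ratio changed by -0.81 (standard error 0.24) for Mir99a to Mir125b-2 and by -0.55 (standard error 0.19) for Mir100 to Mir125b-1. Without overlap, the gap between the groups was narrow for Mir100 to Mir125b-1, from -5.57 in control replicate 3 to -5.66 in Cer replicate 2.

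The ratios of Mir99b to its neighbours changed in opposite directions. Gm25927 rose and Mir125a fell, while the groups of Mir99b itself overlapped. The log2 ratio of Mir99b to Gm25927 changed by -0.74 (standard error 0.18), and that of Mir99b to Mir125a by 0.61 (standard error 0.10). Mir125a had 2.00 to 2.51 times the counts of Mir99b in control and 1.39 to 1.54 times in Cer libraries.

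**Figure D5:**
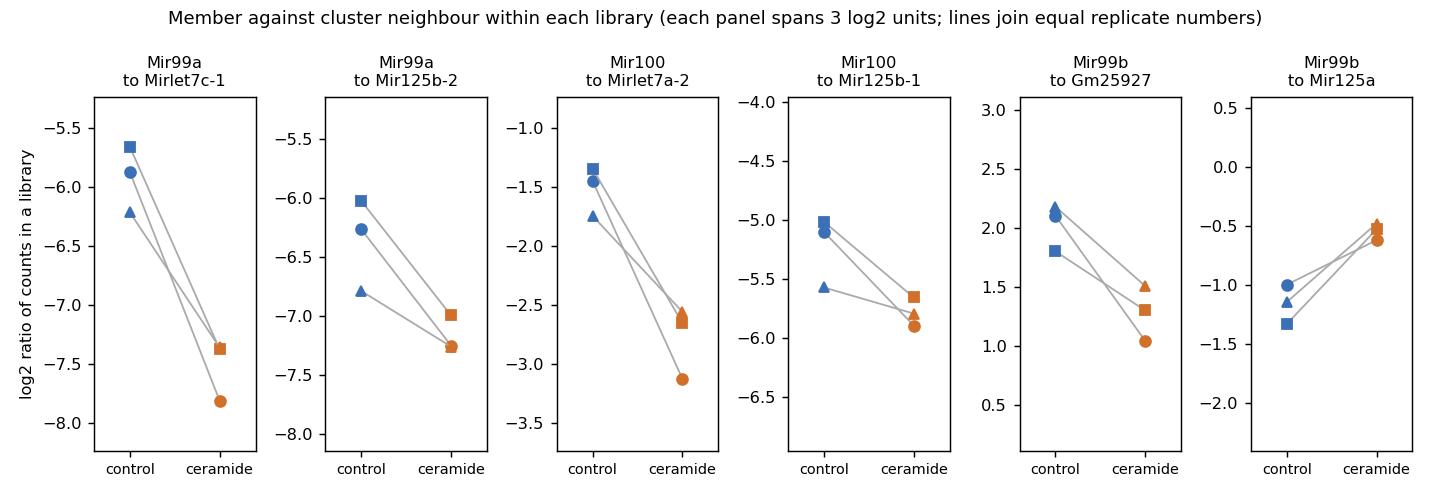
Log2 ratio of the counts of a member to those of a neighbour from its locus in each library, with control at the left and Cer at the right of each panel and grey lines joining equal replicate numbers; each panel spans 3 log2 units. All lines fall, except in the panel of Mir99b to Mir125a, where all rise.

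Among the members themselves, the log2 ratio of Mir99a to Mir99b changed by -0.83 (standard error 0.32) and that of Mir100 to Mir99b by -0.57 (standard error 0.25), without overlap of the groups. Without control replicate 2 the change of Mir100 to Mir99b was -0.37. The ratio of Mir99a to Mir100, whose 5p miRNAs differ by 1 base, changed by -0.26 (standard error 0.07), from -1.14 ± 0.11 to -1.40 ± 0.07 (SD, n = 3 each). The summed counts of Mir10a and Mir10b against those of Mir99a, Mir99b and Mir100 changed by -0.56 (standard error 0.19). The exception to the separation was Mir10a to Mir10b, at -0.53 (standard error 0.38, exact permutation p = 0.4, adjusted p = 0.4), where the counts of Mir10b were few. That change was -0.22 without Cer replicate 1 and -0.86 without Cer replicate 3.

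Together the 5 rows made up 0.467%, 0.442% and 0.514% of all counts in control replicates 1, 2 and 3 and 0.312%, 0.379% and 0.442% in the Cer replicates. The groups did not overlap, but the highest Cer library and the lowest control library both rounded to 0.442%. The means were 0.474 ± 0.0361% and 0.378 ± 0.0650% (SD, n = 3 each; exact permutation test, two-sided, p = 0.1). The share of Mir99b alone, 0.359 ± 0.0538% and 0.314 ± 0.0573% (SD, n = 3 each), overlapped between the groups (exact permutation p = 0.5). With the 11 let-7 rows left out of the denominator, the difference in the share of all 5 rows was -0.0789 percentage points and the groups no longer separated (exact permutation p = 0.3). The direction of each share was kept.

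The miR-10 genes were set beside the other Hox cluster miRNAs of the table, Mir196a-1, Mir196a-2, Mir196b and Mir615. None of these was called, where 11.5% of all rows tested were. Mir196a-1 and Mir196a-2, which encode the same 5p miRNA, differed by 0.36 ± 0.09 and 0.35 ± 0.09 on the log2 scale (SE; edgeR adjusted p = 0.041 for each), past the p threshold and under that of the fold. Of all rows tested, 19.9% were past that p threshold. In both Mir196a rows every Cer library was above every control library, as in 14.1% of the rows tested. Mir196a-1 shares chromosome 11 and the Hoxb cluster with Mir10a. Mir615, in an intron of Hoxc5, differed by -0.64 ± 0.26 (SE; edgeR adjusted p = 0.13) and was called with the replicate block (-0.62, adjusted p = 0.0058). Mir196b, in an exon of Hoxa9, had a log2 fold change of 0.0018 whose sign changed with the settings. The difference between Mir10a and these rows was not tested.

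The rows most like each member over the 6 libraries were found by Pearson's correlation of log2 CPM, a description that includes the difference between the groups. For Mir99a they were Mir465 (r = 0.99) and Mir100 (r = 0.99), and for Mir100 they were Mir99a and Mir28a (r = 0.99). For Mir10a they were Mir92-2 (r = 0.99) and Mir28a (r = 0.99). For Mir99b they were Mir8114 (r = 0.92) and Mir501 (r = 0.91). Of all these rows, Mir99a, Mir100 and Mir92-2 were called, and Mir465, Mir28a, Mir8114 and Mir501 were not. Between members, r was 0.91 for Mir99a and Mir10a and 0.17 for Mir99a and Mir99b. With the group means removed, r was 0.95 for Mir99a and Mir100 and -0.31 for Mir99a and Mir99b, over the same 6 libraries.

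Markers of other sources were read beside these results. Of 10 blood and serum miRNAs listed, Mir142 and Mir486b had no row. All 8 rows for the others were tested and none was called, with 6 estimates above 0 and a median log2 fold change of 0.21. In 3 of them, Mir223 (0.58, edgeR adjusted p = 0.055), Mir122 (0.39, edgeR adjusted p = 0.064) and Mir142b (0.40, edgeR adjusted p = 0.13), every Cer library was above every control library, a pattern found in 14.1% of the 418 rows. In Mir150 (-0.37, edgeR adjusted p = 0.28) every Cer library was below. Mir142b is annotated on the opposite strand over Mir142, and whether its counts come from Mir142 was not tested. The summed level of the 8 rows, most of it from Mir126a (990 ± 62.4 and 1013 ± 84.1 CPM, SD over n = 3), was 1391 to 1474 CPM in control and 1365 to 1516 CPM in Cer libraries. Of 12 neuronal rows, 2 were called lower (Mir128-2 and Mir138-1) and none higher, against 8.37% and 3.11% of all rows tested. Their median log2 fold change was -0.32, and the summed level was 21383 to 22588 CPM and 19958 to 24810 CPM. Every Cer library was below every control library in Mir124a-1, Mir124a-2, Mir124a-3, Mir128-1, Mir128-2 and Mir138-1, and above in Mir137. Over the 418 rows these patterns held in 25.1% and 14.1%. The Mir124a rows had nearly equal counts, as had Mir9-2 and Mir9-3, so they cannot be read as separate measurements. Glial rows numbered 3, of which Mir338 was called lower, at 196 to 213 CPM and 128 to 172 CPM summed. In Mir338 every Cer library was below every control library, as in 25.1% of the 418 rows. In Mir219a-2 (0.61, edgeR adjusted p = 0.13) every one was above, as in 14.1%, and in Mir219a-1 the groups overlapped. None of the 4 muscle rows was called, at 120 to 148 CPM and 135 to 168 CPM. In Mir206 (0.60, edgeR adjusted p = 0.054) every Cer library was above every control library, and in the other muscle rows the groups overlapped. The defining neuronal miRNA miR-124 was low, with Mir124a-1 at 20.0 ± 0.967 and 14.7 ± 0.320 CPM (SD over n = 3). The red cell miRNA row Mir451a was at 36.8 ± 7.07 and 37.6 ± 3.86 CPM (SD over n = 3). The part of these sources in the results for the family was not tested.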

How the data were processed

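Exosomal small RNA of 6 libraries (QIAseq miRNA kit) was analysed. The authors trimmed reads with Cutadapt 1.15, aligned them to GRCm38 with STAR 2.5.3a, assigned them to GENCODE miRNA genes with STAR's GeneCounts mode, and deposited raw counts per gene. Which GENCODE release was used, whether strand was used, and how reads with several alignments and molecular identifiers were treated are not given in the sources used here. Mir124a-2 and Mir124a-3 had the same count in each of the 6 libraries, so reads with several alignments were apparently counted on each matching row. GENCODE M21 names matched 1894 of 1973 rows.

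Groups and replicate numbers came from the labels. Counts were tested with edgeR 4.0.16 (R 4.3.3), using TMM normalization, filterByExpr with its minimum count of 10 (418 rows), the quasi-likelihood test and condition as the only term. DESeq2 1.42.0, limma-voom (limma 3.58.1), other normalizations, no filter, a replicate block, a lane term and omission of each library were alternatives. Standard errors come from the F statistic. Ratios had 0.5 added to both counts. Likeness used log2 CPM with a prior count of 2. The procedure was tested on simulated data. Shares and ratios used exact permutation tests (scipy 1.17.1).

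Deviations from group means correlated at 0.59, 0.43 and 0.75 across 418 rows between libraries numbered 1, 2 and 3 and at -0.59 to 0.10 otherwise, so the numbers were taken to pair the libraries. The family and all lists (locus neighbours, Hox miRNAs, neuronal, blood and serum, glial and muscle miRNAs) were chosen with earlier results of these data known. Named miRNAs were the members, the neighbours, the Hox miRNAs, any row sharing a seed, and the 2 rows most like each member tested.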

Additional observations from a re-analysis of the deposited data

How the results depend on the processing

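The direction of Mir99a, Mir100, Mir10a and Mir99b held in every alternative, as did those of the shares and of the 11 ratios. Mir99a lost its call with the lane term (-1.12) and Mir100 with no filter (-0.71) and the lane term (-0.94). Mir10a lost it with DESeq2's size factors in edgeR (-0.70), upper-quartile factors (-0.71), DESeq2 (-0.76), no filter (-0.79) and the lane term (-1.28). Leaving out each library gave -1.11 to -0.75 for Mir99a, -0.80 to -0.55 for Mir100 and -0.90 to -0.63 for Mir10a. The fits without a library have fewer samples, and the fit with no filter adjusts over more rows. Why calls were lost under any setting was not tested. Mir196b was lower in Cer with library size alone (-0.078), limma-voom (-0.014), no filter (-0.016), the replicate block (-0.0075) and, over the omissions of a library, ranged from -0.064 to 0.10.

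The median log2 fold change was 0.10 over the 1058 rows of DESeq2 and -0.01 over the 418 of the reported fit, so these are not the same rows, and it was 0.03 over 1058 rows in edgeR with no filter. Over the same 418 rows it was 0.07 with DESeq2's size factors. Over the whole table, 48 rows were called, 13 higher and 35 lower. The total was 87 with the replicate block, 29 with the lane term, 83 with no fold threshold and 28 to 55 with a library left out. The number higher was 21 with DESeq2's size factors, 23 with upper-quartile factors, 4 by library size only, 5 when unfiltered, 38 under the block, 8 with the lane term, 30 with no fold threshold and 3 to 14 with a library left out. The number lower was 21 with the lane term, 53 with no fold threshold and 25 to 41 with a library left out. Apart from Mir615, the block changed no call of the members, their neighbours or the Hox miRNAs. The counts of Mir10b, 3 to 13 per library, did not pass the filter of the reported fit. With DESeq2 and with no filter its estimate was below 0, and it was not called.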
